A study of Saccharomyces cerevisiae with 40 samples.

Results

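The 32 genes described here belong to the heat shock chaperone system of budding yeast, Saccharomyces cerevisiae. They were chosen by gene symbol from the platform annotation, among 5449 genes with a matched probe set. No measured value was used as a filter, but earlier results of these data were known. They comprise 7 Hsp70 and Hsp110 proteins, 4 Hsp70 cochaperones, 2 Hsp90 proteins, 6 Hsp90 cochaperones, 5 genes of aggregate handling, 6 mitochondrial chaperones, the chaperone KAR2 of the endoplasmic reticulum and the regulator HSF1. One probe set measured each of 31 members and 2 were averaged for SSB1. All 32 members lay above background on all 40 arrays, background being the 95th percentile of probe sets named for another species on the same array. Close copies of a gene (SSA1 and SSA2, SSB1 and the unlisted SSB2) may share signal on such probes.

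Chaperones bind unfolded proteins and help them to fold, to stay soluble or to be pulled out of aggregates. Hsp70 proteins cycle on and off their clients with the help of J-domain proteins and nucleotide exchange factors, and Hsp90 matures a narrower set of clients with its own cochaperones. The transcription factor Hsf1 keeps many of these genes active and induces them further when unfolded proteins build up. Msn2 and Msn4, the regulators of the general stress response, share some targets with it, HSP26, HSP42, HSP78 and HSP104 among them.

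The study evolved yeast over many generations under heat or high pH. Cultures then passed 18 generations free of stress and gave RNA at mid log phase, so the comparisons address lasting rather than immediate changes. Of the 23 diploid arrays, 2 were ancestors, 4 had seen 39 °C throughout 450 generations (abrupt heat), 4 had seen a temperature rising from 30 °C to 39 °C over 450 generations (gradual heat), and 2 had been kept at 30 °C for 450 generations. An unevolved clone with 3 copies of chromosome III and one with 1 copy had 1 array each. A line called H2, taken from abrupt heat, had 4 arrays from a return to 30 °C for 600 generations (H2 relaxed). Minimal medium was used for 2 arrays of H2 kept at 39 °C for 1000 more generations, 2 of the trisomic clone evolved likewise for 1000, and 1 ancestor. The 17 haploid arrays held 2 of the ancestor, 1 after 150 generations at pH 8.6, 1 each of a euploid and a disomic spore of that pH line, 4 of that line after 600 further generations at pH 8.6 (750 in total), and 8 spores of a line called evo39. The strain background is not given in the sources used here. By their labels the H2 arrays, the 8 spores and the 4 late pH arrays each carry the name of 1 evolved line, so their spread is that among descendants of a line, and the trisomic and monosomic clones are mono-clonal. RNA came from whole cultures, in which fewer cells with a transcript and less transcript per cell cannot be told apart.

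Values are deposited log2 levels from a microarray, and levels of different genes are not compared. The arrays fell into 9 normalization runs, inferred from values identical to the last digit, and each array is given as its difference from a reference array of its own run. Runs 1, 5, 6, 7 and 9 held an ancestor. In run 2 abrupt heat 3 was set against abrupt heat 1, in run 3 abrupt heat 4 against 30 °C array 1, in run 8 the pH 8.6 arrays against the euploid spore, and 30 °C array 2 stood alone. Ancestors of different runs were themselves apart: after all arrays were put on one quantile scale, the diploid ancestors had BTN2 at 9.28 and 8.44 and HSP26 at 9.31 and 7.79, and the haploid ancestors had HSP26 at 9.76 and 11.8. Changes were fitted with limma on all tested genes with a term for the run, and a member was called where its Benjamini-Hochberg adjusted p, over all genes, was under 0.05.

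Several spore and late pH arrays, whose labels state no ploidy, were low in 8 haploid-specific genes, which diploid cells repress. On the common scale their median was 5.79 to 6.49 on the 23 diploid arrays and 9.74 to 10.4 on 12 haploid or spore arrays. Spores 1, 5 and 7 of evo39 lay at 5.85 to 6.00, within the diploid range. In those spores genes of chromosome III had medians of 0.77, 0.74 and 0.75 over the haploid ancestor. Spore 2 had 0.78 there with haploid-specific genes at 10.07. Arrays 3 and 4 after 750 generations at pH 8.6 lay between the ranges, at 9.11 and 8.46. For BTN2, CUR1, HSP26 and HSP42, fitted changes in the spores are given with and without spores 1, 5 and 7. For BTN2, CUR1, HSP26 and HSP78, those in the late pH arrays are given with and without arrays 3 and 4. The other results of both groups include these arrays.

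**Figure D1:**
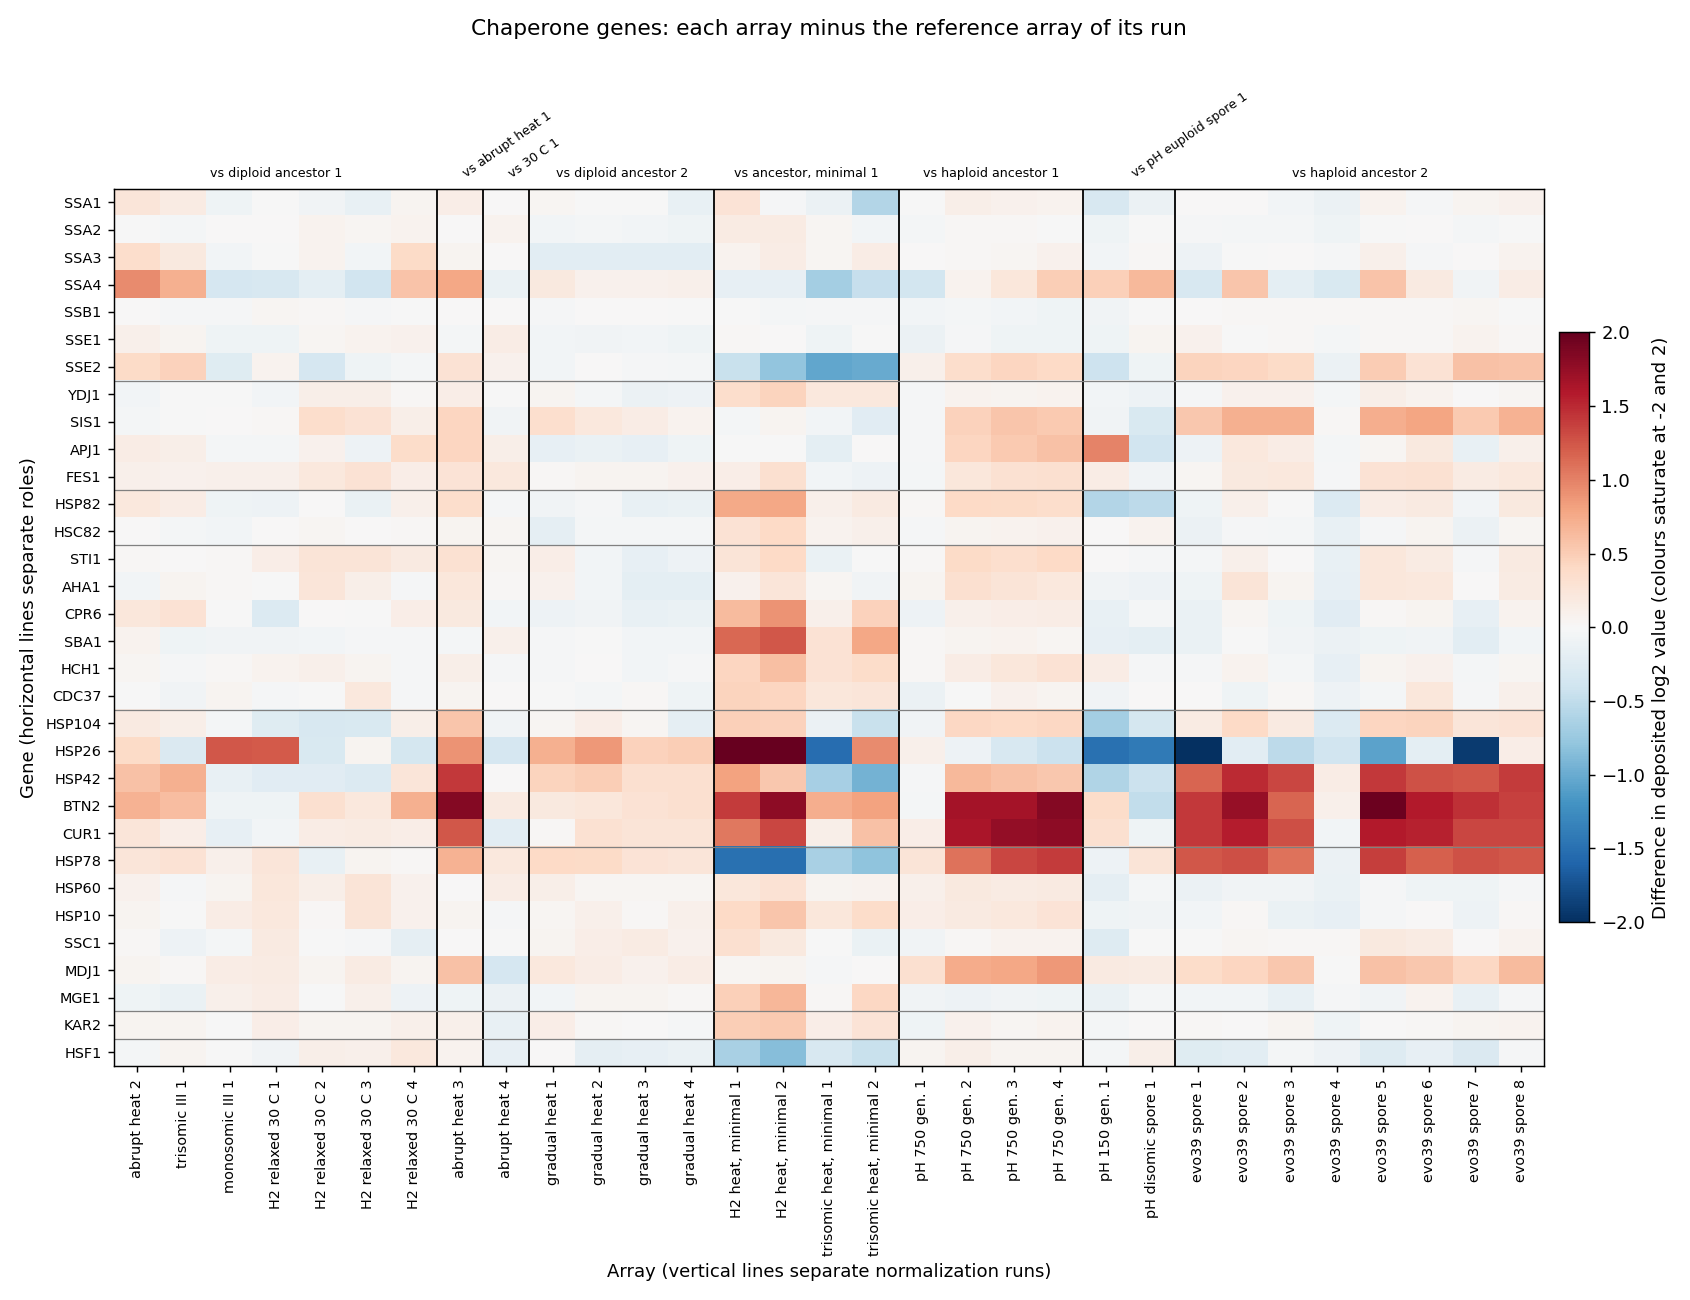
Difference in deposited log2 value between each of 31 arrays (columns, ordered by normalization run) and the reference array named above its run, for the 32 chaperone genes (rows, ordered by role). Colours saturate at −2 and 2; the 4 arrays evolved on minimal medium show changes across most roles, while in the evo39 spores and the late pH 8.6 arrays the strong colour sits in BTN2, CUR1, HSP42, HSP78, SIS1 and MDJ1, where 1 array of each group is pale, and in HSP26 of some spores.

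Across the 31 differences the members varied very unevenly, as the colour map of all arrays shows. BTN2, which helps to sort misfolded proteins into inclusions, had a median absolute difference of 0.71 and exceeded 0.5 in size on 18 of 31 arrays. The small heat shock protein gene HSP42 followed with 0.59, also on 18 arrays, then HSP26, the other small heat shock protein gene, with 0.50 and HSP78, a mitochondrial disaggregase, with 0.40. At the other end SSB1, the ribosome-bound Hsp70, ranged only from −0.09 to 0.04, HSC82, the constitutive Hsp90, had a median absolute difference of 0.04, and so did SSA2, the constitutive cytosolic Hsp70.

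The comparisons on minimal medium, after 1000 generations at 39 °C, called the most members. Against the ancestor on that medium, 16 of 32 members rose in the H2 line and 3 fell (n = 2 against 1). Of all genes tested, 58% were called in this comparison, so the share of members called, both directions together, was close to the background. By direction it was not: 16 of 32 members higher stood beside 30.6% of all genes, and 3 of 32 lower beside 27.3%. The median change of the members was 0.29 and that of all genes 0.03. In the descent of the trisomic clone 4 members rose and 3 fell (n = 2 against 1), where 33.8% of all genes were called, 18.7% higher and 15.1% lower, and the median of the members, −0.01, lay beside 0.01 for all genes. Its chromosome III genes lay at −0.05 and −0.04 relative to the ancestor. Compared directly, H2 exceeded the trisomic descent in 19 members and lay below it in 2 (n = 2 against 2), with 39.6% of all genes called, 19.7% higher and 19.8% lower. The median difference was 0.28 for the members and 0.02 for all genes.

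Both Hsp90 genes rose in H2. HSP82, the heat-inducible Hsp90, stood at 11.37 in the ancestor, 12.13 and 12.14 in H2, and 11.47 and 11.54 in the trisomic descent, so both H2 arrays lay above the other 3. It rose by 0.77 ± 0.12 in H2 (SE; limma adjusted p = 0.000137), and its change of 0.14 in the trisomic descent did not pass. HSC82 was 13.50 in the ancestor, 13.79 and 13.89 in H2 and 13.56 and 13.61 in the trisomic descent, a rise of 0.34 ± 0.06 in H2 (adjusted p = 0.00034). Both Hsp90 genes also differed between the lines, by 0.63 and 0.26.

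All but 1 of the 6 Hsp90 cochaperones were called higher in H2, where 30.6% of all genes were. SBA1, the yeast p23 that stabilises the closed form of Hsp90, was 11.56 in the ancestor, 12.70 and 12.79 in H2, and 11.84 and 12.33 in the trisomic descent. It rose by 1.19 ± 0.13 in H2 (adjusted p = 4.62e-06), a 2.28-fold change, and by 0.53 ± 0.13 in the trisomic descent (adjusted p = 0.0077). The cyclophilin CPR6 rose by 0.77 ± 0.16 in H2, with differences from the ancestor of 0.64 and 0.91, and those of the trisomic arrays were 0.10 and 0.46. HCH1, a relative of the Hsp90 activator AHA1, rose in both lines, by 0.51 and 0.33. CDC37, which brings kinases to Hsp90, rose by 0.44 and STI1, which links Hsp70 to Hsp90, by 0.33, both in H2. AHA1 itself differed by 0.09 and 0.24 on the H2 arrays and by 0.05 and −0.06 on the trisomic ones, and was not called.

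Of the 7 Hsp70 and Hsp110 genes, SSA2 rose and SSE2 fell in H2, and SSE2 alone was called, lower, in the trisomic descent. SSA1, an Hsp70 with basal and inducible expression, was 12.39 in the ancestor, 12.65 and 12.36 in H2, and 12.27 and 11.80 in the trisomic descent. It differed between the lines by 0.47 ± 0.13 (adjusted p = 0.0124) without a call against the ancestor in either. SSA2 rose by 0.16 ± 0.04 in H2 (adjusted p = 0.004), with both H2 arrays 0.16 above the ancestor. The stress-induced SSA3 and SSA4 were not called: SSA3 differences were 0.07, 0.15, 0.03 and 0.15 in H2 arrays 1 and 2 and trisomic arrays 1 and 2, and those of SSA4 were −0.16, −0.16, −0.68 and −0.45. SSE1, the main Hsp110 exchange factor, lay within −0.09 to 0.03 of the ancestor on the 4 arrays. Its inducible paralog SSE2 fell in both lines, from 9.80 in the ancestor to 9.36 and 9.01 in H2 and to 8.77 and 8.80 in the trisomic descent, by 0.62 and 1.02 on the log2 scale. Among the cochaperones, the J-domain protein YDJ1 rose by 0.40 in H2, and SIS1, APJ1 and the exchange factor FES1 were not called against the ancestor.

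Genes that handle aggregates gave the largest differences. HSP26 stood at 9.55 in the ancestor, at 11.66 and 11.73 in H2, and at 8.02 and 10.50 in the trisomic descent. It rose by 2.14 ± 0.77 in H2 (adjusted p = 0.0299), while the 2 trisomic arrays lay on either side of the ancestor. H2 exceeded the trisomic descent in HSP26 by 2.43 ± 0.63 (adjusted p = 0.00808), and by 1.20 to 3.67 when single arrays were left out, the lowest, not called, without trisomic array 1 and the highest without trisomic array 2. HSP42 was 10.73 in the ancestor, 11.53 and 11.27 in H2, and 10.06 and 9.79 in the trisomic descent. Neither line was called against the ancestor, and the difference between the lines, 1.48 ± 0.32, was (adjusted p = 0.00258). HSP104, the disaggregase that extracts proteins from aggregates, behaved likewise, at 11.37 in the ancestor, 11.85 and 11.84 in H2 and 11.25 and 10.93 in the trisomic descent, with a difference of 0.75 ± 0.18 between the lines. BTN2 rose by 1.59 ± 0.50 in H2 and its paralog CUR1 by 1.19 ± 0.35. BTN2 differences were 1.39, 1.79, 0.72 and 0.80 over H2 arrays 1 and 2 and trisomic arrays 1 and 2, so all 4 arrays lay above the ancestor.

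Organelle chaperones split. HSP78 fell in both lines, from 11.17 in the ancestor to 9.67 and 9.66 in H2 and to 10.52 and 10.36 in the trisomic descent, 2.83-fold in H2 and 1.65-fold in the trisomic descent. In the other direction the chaperonin genes HSP60 and HSP10 rose by 0.25 and 0.48 in H2, and MGE1, the exchange factor of mitochondrial Hsp70, by 0.57. SSC1, the mitochondrial Hsp70 itself, and its J-domain partner MDJ1 were not called against the ancestor. KAR2 rose in both lines, by 0.51 ± 0.07 and 0.21 ± 0.07, from 12.71 in the ancestor to 13.20 and 13.24 in H2 and 12.85 and 12.99 in the trisomic descent. The regulator HSF1 fell in both, from 10.27 to 9.62 and 9.42 in H2 and to 9.95 and 9.82 in the trisomic descent (adjusted p = 0.000156 and 0.0266). HSP60 lies in a stretch of chromosome XII whose genes had a median of 0.47 on trisomic array 1 and 0.18 on trisomic array 2. There HSP60 itself differed by 0.06 and 0.07. On H2 arrays 1 and 2 the stretch had medians of 0.14 and 0.17, and HSP60 differed by 0.22 and 0.29. The part of the stretch in the HSP60 values was not tested.

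**Figure D2:**
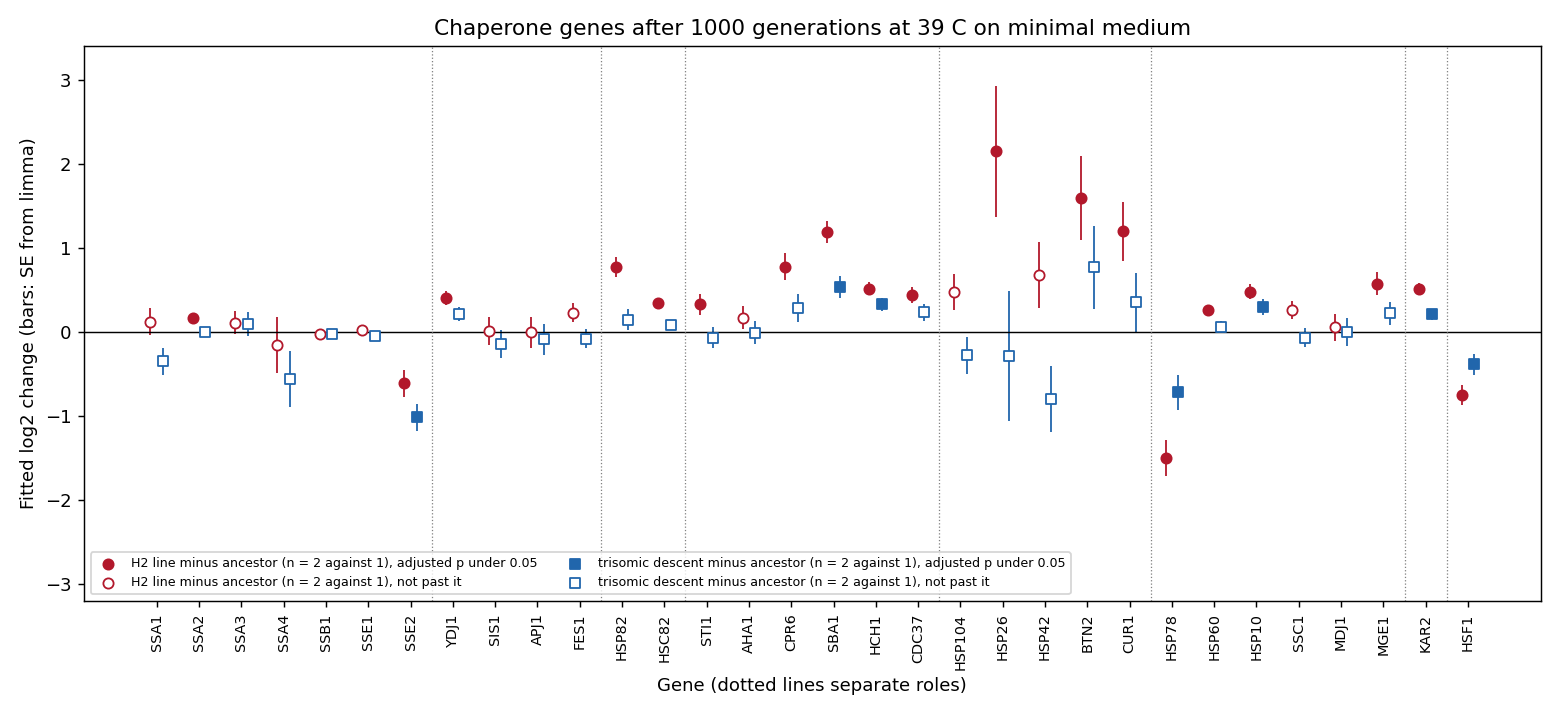
Fitted log2 change of each chaperone gene against the ancestor on minimal medium, for the H2 line (circles) and the descent of the trisomic clone (squares), with limma standard errors and 2 arrays against 1 in each case. Filled symbols passed the adjusted threshold of 0.05: 16 rises and 3 falls in H2, and 4 rises and 3 falls in the trisomic descent.

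Other protein-folding genes on this medium were taken from lists of the same kind, and their counts stand beside the 58% of all genes called in H2 (30.6% higher, 27.3% lower) and 33.8% in the trisomic descent. Of 14 subunits of the cytosolic chaperonin CCT and its partner prefoldin, 10 rose in H2 and none fell, with PAC10 at 0.87, PFD1 at 0.74 and CCT4 at 0.32, and 4 rose and 1 fell in the trisomic descent. Among 19 other cytosolic chaperones 9 rose and 3 fell in H2, led by SNL1 at 1.08 and XDJ1 at −0.90. Of 12 genes for folding in the endoplasmic reticulum, 5 rose and 2 fell. Both directions together, that share was close to that of all genes, as was that of the cytosolic list. HAC1, the regulator of the unfolded protein response, was one of those that fell, by 1.08 in H2 and 0.57 in the trisomic descent. Of 12 other mitochondrial chaperones and proteases, 1 rose and 3 fell in H2 and 1 rose and 1 fell in the trisomic descent. Of 10 other Hsf1 targets, 1 rose and 3 fell in H2 and 3 fell in the trisomic descent. Of 17 genes of the Msn2 and Msn4 response, 5 rose and 1 fell in H2 and 4 fell in the trisomic descent, and 9 differed between the lines, all higher in H2. The median difference of that list from the ancestor was 0.79 and 0.29 on the H2 arrays and −0.45 and −0.68 on the trisomic arrays. HSP42 and HSP104 lay on the same side of the ancestor as this list on all 4 arrays. HSP26 did so on 3 of 4, the exception being trisomic array 2. HSP78 lay on the other side on both H2 arrays, at −1.49 and −1.51, and on the same side on both trisomic arrays. The part of the list in the values of these members was not tested.

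These calls rest on 1 ancestor array and on a spread estimated mostly from other groups. The shares of all genes called in the settings that follow are not given here. Their counts are therefore not read as results about the members. With each comparison fitted on its own groups alone (3, 3 and 4 arrays) the counts were 8, 0 and 9 in place of 19, 7 and 21, and without a run term 1, 0 and 2. The trisomic count was 3 without trisomic array 2, and the count between the lines was 12 without H2 array 2 or without trisomic array 1. HSP26 lost its call against the ancestor when either H2 array was left out, and BTN2, CUR1 and STI1 lost theirs without H2 array 2.

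In spores of evo39, no member was called against the haploid ancestor of their run, and no gene on the array was (0% of 5352; n = 8 against 1, limma). At an unadjusted p under 0.05, 3 members were higher and none lower, beside 318 and 356 of all genes. The values were nevertheless far from uniform, because 1 array stood apart. By the share of all genes that differed from the ancestor, spore 4 was also the nearest to it. There 0.82% of genes exceeded 0.5 and 0.45% lay under −0.5. The other 7 spores had 2.00% to 7.23% and 1.49% to 6.41%. BTN2 was 8.72 in the ancestor and 8.82 in spore 4, and in the other 7 spores it ranged from 9.89 to 10.69 with differences of 1.16 to 1.96. CUR1 was 7.52 in the ancestor, 7.47 in spore 4 and 8.82 to 9.10 elsewhere. HSP42 was 9.98, 10.13 and 11.14 to 11.48 in the same order, and HSP78 was 9.76, 9.65 and 10.85 to 11.15. In each of these 4 genes spore 4 lay beside the ancestor and the other 7 spores lay above both without overlap. How many of all genes split in this way was not counted.

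The fitted changes over all 8 spores were 1.35 ± 0.65 for BTN2, 1.25 ± 0.60 for CUR1, 1.18 ± 0.39 for HSP42 and 1.07 ± 0.48 for HSP78 (SE; adjusted p from 0.313 to 0.4). Without spore 4, HSP42 at 1.33 was the only member called, and without spores 1, 5 and 7 the changes of BTN2, CUR1 and HSP42 were 1.19, 1.14 and 1.13 with none called. SIS1, the essential J-domain protein, showed the same split with differences of 0.53 to 0.80 in 7 spores and 0.03 in spore 4, as did MDJ1 with 0.37 to 0.63 and −0.01. SSE2 differences were 0.28 to 0.59 and −0.12. In the abundant cytosolic chaperones the differences were smaller, though spore 4 was the lowest in SSA1, SSA2 and HSC82. SSA1 ranged from −0.12, in spore 4, to 0.09, and SSA2 from −0.08, in spore 4, to 0.00. SSB1 ranged from −0.01 to 0.04 and HSC82 from −0.15, in spore 4, to 0.06. HSP82 lay between −0.28, in spore 4, and 0.19.

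A gap test, which asks whether the lowest or highest array of a group stands off from the rest, set spore 4 apart as the lowest of 8 in 9 of 32 members (28.1%), against 1.55% of all genes. These were BTN2, CUR1, HSP42, HSP78, HSP104, SIS1, MDJ1, SSE2 and KAR2. Counting either end of a group and any array, the test set an array apart in 7.75% of all genes in the spores, 16.6% in the late pH arrays, 8.45% in abrupt heat, 26.6% in gradual heat and 6.65% in H2 relaxed. The Msn2 and Msn4 list moved with them, with a median of −0.03 in spore 4 and 0.30 to 0.59 in the other 7, and its part was not tested. The median over all members was −0.10 in spore 4, beside −0.0004 for all genes. In the others it was −0.02 to 0.12, beside −0.04 to 0.01 for all genes.

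**Figure D3:**
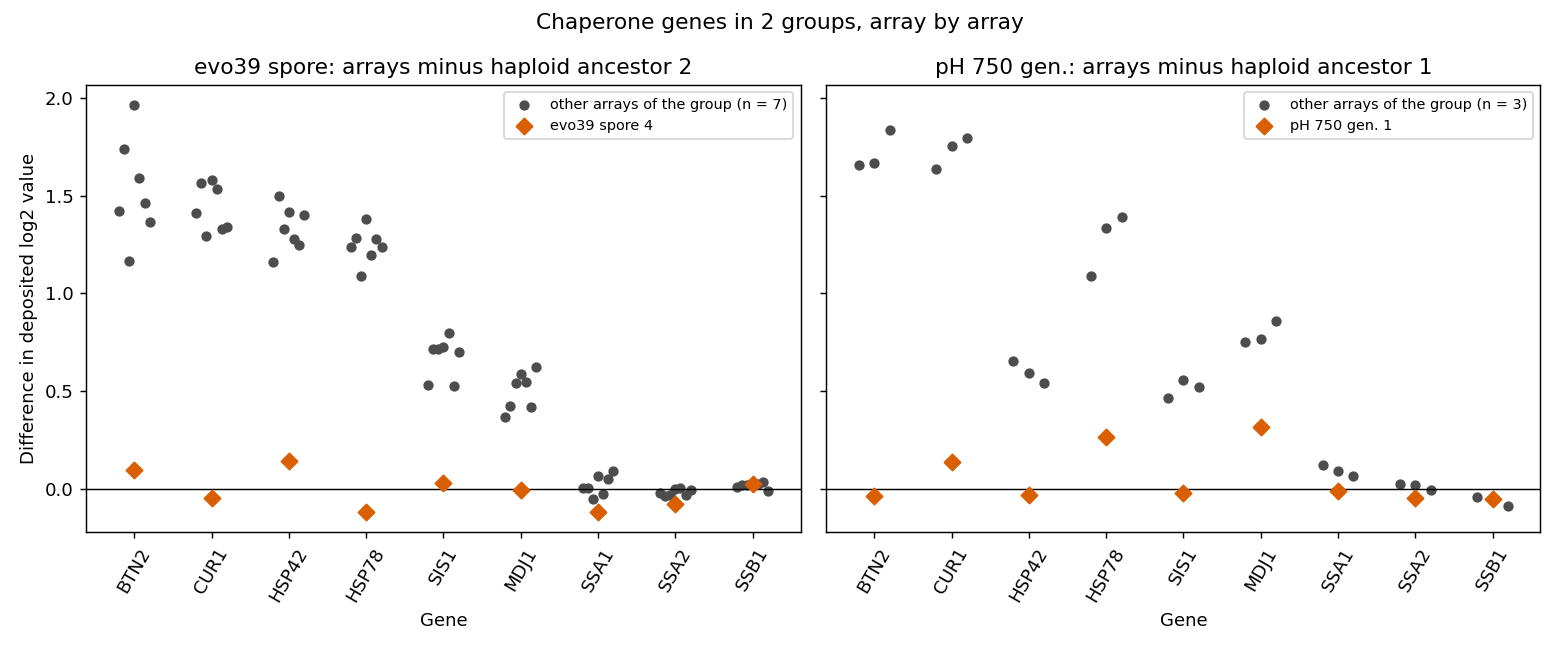
Difference in deposited log2 value from the haploid ancestor of the run for 9 chaperone genes, in 8 spores of evo39 (left) and 4 arrays after 750 generations at pH 8.6 (right), 1 point per array. Spore 4 and pH array 1 (diamonds) sit near 0 for BTN2, CUR1, HSP42 and SIS1, where the other arrays lie between 0.47 and 1.96, and all arrays sit near 0 for SSA1, SSA2 and SSB1.

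HSP26 took another course in the spores. It was 12.22 in the ancestor, 9.94, 11.15 and 10.31 in spores 1, 5 and 7, and 11.69 to 12.35 in the other 5. Its differences were thus −2.28, −1.07 and −1.91 in the 3 spores low in haploid-specific genes and −0.53 to 0.13 in the rest, without overlap. The number of other genes with such a split was not counted. The fitted change was −0.80 over all spores and −0.23 without those 3, neither called, and it was 0.66 without a run term and 0.13 on the common quantile scale. Haploid-specific genes had medians of −4.10, −3.97 and −4.35 in the same spores, and genes of chromosome III had medians of 0.74 to 0.78 in spores 1, 2, 5 and 7. The part of either in the HSP26 values was not tested. HSF1 was also on the low side, from −0.30 to −0.03 across the 8 spores, and so was SBA1, from −0.21 to −0.01.

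**Figure D4:**
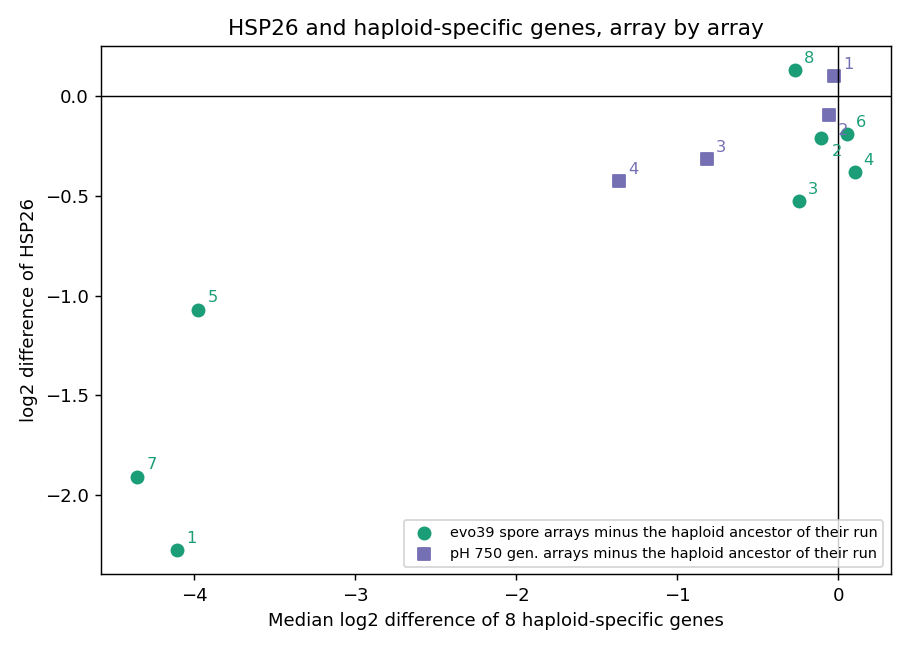
HSP26 difference (vertical axis, log2) against the median difference of 8 haploid-specific genes (horizontal axis, log2), each array minus the haploid ancestor of its run, for 8 evo39 spores (circles) and 4 arrays after 750 generations at pH 8.6 (squares), numbered by replicate. Spores 1, 5 and 7 lie at the lower left, with HSP26 from −2.28 to −1.07.

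After 750 generations at pH 8.6, a stress other than heat, BTN2, CUR1 and HSP78 had the largest fitted changes. No member was called (0 of 32; 0.149% of all genes; n = 4 against 1). Unadjusted p-values under 0.05 were found for 3 members that were higher and 1 that was lower, beside 396 and 245 of all genes. BTN2 was 8.51 in the ancestor, 8.47 on array 1 and 10.17, 10.18 and 10.34 on arrays 2 to 4. CUR1 was 6.50 in the ancestor, 6.64 on array 1 and 8.14, 8.25 and 8.29 on the others, and HSP78 went from 8.42 and 8.68 to 9.51, 9.76 and 9.81. Array 1 thus lay near the ancestor and arrays 2 to 4 clearly above it. The fitted changes over the 4 arrays were 1.33 ± 0.63 for CUR1, 1.28 ± 0.68 for BTN2 and 1.02 ± 0.50 for HSP78 (adjusted p = 0.43, 0.477 and 0.435). Without arrays 3 and 4 they were 0.89, 0.81 and 0.68, none called.

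MDJ1 was above the ancestor on all 4 arrays, by 0.32, 0.75, 0.77 and 0.86, and the mitochondrial chaperonin genes were too, HSP60 by 0.10 to 0.20 and HSP10 by 0.14 to 0.27. HSP42 differed by −0.03, 0.66, 0.59 and 0.54, HSP82 by 0.02, 0.40, 0.38 and 0.35, and APJ1 by −0.02, 0.42, 0.52 and 0.59. HSP82 and APJ1 were thus level with the ancestor on array 1 and above it on the other 3. HSP26 was the member with the most negative fitted change, −0.18, made of 0.10 and −0.10 on arrays 1 and 2 and −0.31 and −0.43 on arrays 3 and 4, and it was 0.00 without the last 2. SSE1 ranged from −0.12 to −0.03 and MGE1 from −0.10 to −0.06.

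The gap test set array 1 apart as the lowest of 4 in 9 of 32 members (28.1%), against 3.68% of all genes. BTN2, CUR1, HSP42, HSP104 and SIS1 were set apart both here and in spore 4. Of all genes, 83 were set apart in spore 4 and 197 in pH array 1, and 13 were shared, 15.7% of the first list and 6.6% of the second. The Msn2 and Msn4 list had a median of 0.20 on array 1 and 0.29 to 0.41 on the others. SSA4 lies on chromosome V, whose genes had medians of 0.27 and 0.34 on arrays 3 and 4 and 0.02 on arrays 1 and 2, and SSA4 differed by −0.37, 0.07, 0.23 and 0.49 on arrays 1 to 4.

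The earlier pH 8.6 array and both spores of that line formed a run without an ancestor. Against the euploid spore, APJ1, a J-domain protein of the cytosol and nucleus, rose by 0.99 ± 0.25 in the array after 150 generations (adjusted p = 0.0374; n = 1 against 1), from 7.79 to 8.78. It was the only member of 32 called, where 5.29% of all genes were (3.87% higher, 1.42% lower). At an unadjusted p under 0.05 a further 7 members were lower, beside 358 of all genes. In the disomic spore no member was called, where 6.39% of all genes were (4.22% higher, 2.17% lower). There 2 members were lower at an unadjusted p under 0.05, beside 454 of all genes. HSP26 was 10.91 in the euploid spore, 9.41 after 150 generations and 9.50 in the disomic spore. HSP82 was 11.59, 11.01 and 11.07 in the same order, HSP104 was 12.11, 11.44 and 11.76, and HSP42 was 11.47, 10.87 and 11.04, so the euploid spore was the highest of the 3 in each. The Msn2 and Msn4 list had medians of −0.77 and −0.49 against it, and its part in these values was not tested. BTN2 went to either side, 10.45 in the euploid spore, 10.82 after 150 generations and 9.97 in the disomic spore. SSA4 was 9.67, 10.14 and 10.32, differences of 0.47 and 0.65, and genes of its chromosome V had a median of 0.75 on both arrays.

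In diploids on rich medium no comparison called a member. Abrupt heat against the ancestor rested on abrupt heat 2 and ancestor 1, and none of 32 passed (0.3% of all genes, 0.262% higher and 0.0375% lower; 1 member higher at an unadjusted p under 0.05). SSA4 was 9.31 in the ancestor and 10.26 after abrupt heat, a change of 0.95 ± 0.38 (adjusted p = 0.781). The unevolved trisomic clone, with 0.45% of all genes (0.394% higher, 0.0562% lower) and no member called, had SSA4 at 10.02, a difference of 0.71, along with HSP42 at 0.71, BTN2 at 0.61 and SSE2 at 0.46. Abrupt heat 2 had 0.59, 0.70 and 0.39 for these 3 genes over the same ancestor array. The Msn2 and Msn4 list lay above the ancestor in all 17 genes in both, with medians of 0.40 and 0.55. Genes of chromosome III had a median of 0.49 on both arrays, and no member lies there. The lowest members of abrupt heat 2 were MGE1 at −0.09, YDJ1 at −0.06 and AHA1 at −0.05.

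Abrupt-heat arrays differed among themselves. Abrupt heat 3 exceeded abrupt heat 1 of the same run by 1.84 in BTN2, 1.42 in HSP42, 1.24 in CUR1, 0.89 in HSP26, 0.77 in SSA4, 0.70 in HSP78, 0.59 in MDJ1 and 0.55 in HSP104. These 8 members passed a difference of 0.5, as did 2.21% of all genes, and the Msn2 and Msn4 list had a median of 0.56. Abrupt heat 4 differed from 30 °C array 1 by 0.18 in BTN2, 0.00 in HSP42, −0.21 in CUR1 and −0.34 in HSP26. With these runs linked, no member was called between abrupt heat and 30 °C (1.52% of all genes, 1.18% higher and 0.337% lower; none at an unadjusted p under 0.05) or between 30 °C and the ancestor (0.0187% of all genes; likewise none).

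A population kept at 30 °C carried the highest BTN2 level of the 40 arrays. On the common quantile scale 30 °C array 2, alone in its run, had BTN2 at 11.62, CUR1 at 9.94 and HSP42 at 11.15, against 9.73, 8.62 and 10.44 in 30 °C array 1. On that scale, without a run term, 6 members were called between 30 °C and the ancestor, 5 higher and 1 lower, among them BTN2, CUR1 and HSP42. The share of all genes called in that setting is not given here, so the count is not read as a result about chaperones. The run term removes 30 °C array 2 from every comparison, since no other array shared its run.

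After gradual heat no member was called against the ancestor of the run (0.075% of all genes, 0.0562% higher and 0.0187% lower; none at an unadjusted p under 0.05; n = 4 against 1). HSP26 was 7.31 in the ancestor and 8.01, 8.17, 7.77 and 7.81 in the 4 populations, HSP42 was 7.87 and 8.32, 8.37, 8.19 and 8.20, and HSP78 was 9.06 and 9.47, 9.44, 9.33 and 9.31. In all 3 the 4 populations lay above the single ancestor array, with fitted changes of 0.63, 0.40 and 0.32. How many of all genes lay to 1 side of it in this way was not counted. HSP26 and HSP42 turned to −0.15 and −0.23 on the common quantile scale, where both ancestors enter. SSA3 was 8.63 in the ancestor and 8.41 to 8.43 in the populations, APJ1 differed by −0.16 to −0.08 and HSF1 by −0.18 to 0.00. The median of the Msn2 and Msn4 list was 0.19 to 0.34 on these arrays. Abrupt and gradual heat share no run, and through their ancestors no member was called (0.0187% of all genes). At an unadjusted p under 0.05, 1 member was higher there, beside 158 of all genes.

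H2 kept at 30 °C for 600 further generations lay near the ancestor in most members. None was called against the ancestor (0.075% of all genes, 0.0375% higher and 0.0375% lower; n = 4 against 1). Nor was any against abrupt heat 2 (1.78% of all genes, 0.281% higher and 1.5% lower; n = 4 against 1). At an unadjusted p under 0.05, 1 was higher and 3 were lower, respectively, beside 202 higher and 281 lower of all genes. SSA4 was 8.98, 9.11, 8.93 and 9.88 in the 4 arrays, against 9.31 in the ancestor and 10.26 in abrupt heat 2, and its change from abrupt heat was −1.03 ± 0.30 (adjusted p = 0.137). Array 4 alone lay above the ancestor, and without it SSA4 was called lower than abrupt heat. HSP42 differed from the ancestor by −0.23, −0.23, −0.27 and 0.25, SSE2 by 0.08, −0.33, −0.09 and −0.04, and HSP104 by −0.24, −0.32, −0.31 and 0.12. BTN2 differed by −0.08, 0.33, 0.21 and 0.71, STI1 by 0.13 to 0.25 and SIS1 by 0.02 to 0.35. The Msn2 and Msn4 list had medians of 0.06, −0.88, −0.37 and −0.31 on the 4 arrays.

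HSP26 was spread widely among the H2 relaxed arrays, at 10.15, 8.63, 8.98 and 8.58 against 8.93 in the ancestor. The unevolved monosomic clone in the same run had it at 10.17, a difference of 1.24 ± 0.89 that was not called, and no member of the clone was (0.825% of all genes, 0.075% higher and 0.75% lower; none at an unadjusted p under 0.05). The next largest differences of the clone were 0.15 in HSP10 and 0.14 in MDJ1, and on the other side −0.34 in SSA4, −0.24 in SSE2 and −0.17 in CUR1. The trisomic clone had HSP26 at −0.29, MGE1 at −0.14 and SSC1 at −0.10.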

How the data were processed

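The deposited values are log2 expression levels that the authors made with RMA (background correction, quantile normalization and summary of probes), per the submitters' processing notes; the sources used here give neither version nor genome build. Names came from the platform annotation and the RefSeq gene table. Arrays were joined into 9 runs where at least 0.1% of values were identical (within runs at least 0.22%, between runs at most 0.0183%). Genes above background on 2 arrays or more were tested. The 23 diploid arrays (5335 genes, 9 residual degrees of freedom) and the 17 haploid arrays (5352 genes, 10) were fitted separately with limma 3.58.1 in R 4.3.3, with group and run as terms a prior variance that followed intensity, and a threshold of 0.05 after Benjamini-Hochberg adjustment. Errors are standard errors; n counts arrays in runs that hold both groups, and a lone array is assumed to vary like the replicated groups. Where the labels do not say that replicates were separate cultures, p-values measure the spread between arrays, which may be technical. The number of arrays limits the precision. Tested on simulated data, the fit recovered 100% of 100 genes changed by 1 and of 100 changed by 2 log2 units. That test was of gradual heat against the ancestor (5335 genes, 12 unchanged genes called). Recovery was not tested at standard deviations like 0.88 (BTN2, late pH arrays) or 0.87 (HSP26, spores). A member without a call is therefore not read as unchanged. Members, lists and the run term were chosen with earlier results of these data known. Values were given array by array for members that passed the threshold, for the paralogs SSA1 to SSA4, SSE1 and SSE2, and HSP82 and HSC82, and for the 3 largest rises and falls of each comparison. Genes of other lists were named only where called, at most 4 a list. The other lists were other cytosolic chaperones, CCT and prefoldin, folding in the endoplasmic reticulum, other mitochondrial chaperones and proteases, other Hsf1 targets (10 of 11 matched), Msn2 and Msn4 genes and haploid-specific genes. Alternatives were no run term, a random run term, quantile normalization over all arrays, no filter, the brightest probe set, 1 fit of all arrays, no trend, only the groups compared, a replicate block and leaving out single arrays.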

Additional observations from a re-analysis of the deposited data

Results flagged for a closer look

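The lowest or highest array of a group of 4 or 8 stood off from the others in the members named here, judged by Dixon's gap at the 95% level. Chance sets apart about 1 in 20 groups by construction, but over all genes an array was set apart in 26.6% of genes in gradual heat, 16.6% in the late pH arrays, 8.45% in abrupt heat, 7.75% in the spores and 6.65% in H2 relaxed. Spore 4 of evo39 was the lowest of 8 in SSE2 at 10.08, SIS1 at 11.86, HSP104 at 12.17, HSP42 at 10.13, BTN2 at 8.82, CUR1 at 7.47, HSP78 at 9.65, MDJ1 at 10.91 and KAR2 at 13.66. After 750 generations at pH 8.6, array 1 was the lowest of 4 in YDJ1 at 12.52, SIS1 at 11.01, HSP82 at 11.67, STI1 at 11.70, CPR6 at 11.76, HSP104 at 11.03, HSP42 at 9.33, BTN2 at 8.47 and CUR1 at 6.64, and HSF1 was highest on array 2 at 8.89. In gradual heat SSA2 was lowest in population 4 at 13.31, SSA3 in population 2 at 8.41 and HSC82 in population 1 at 12.91. HSP60 was highest there in population 1 at 13.07. In SSA3 and HSC82 the other populations held identical values, 8.43 and 13.05, so a gap of any size is set apart. The same holds for HSF1 in the late pH arrays, where the others were all at 8.83. Among H2 relaxed arrays CDC37 was highest on array 3 at 10.54, HSP42 highest on array 4 at 9.44 and CUR1 lowest on array 1 at 7.08. In abrupt heat, compared on the common quantile scale, SSA1 and SSA3 were lowest on array 4, at 12.29 and 8.27, and HSP78 was highest on array 3, at 10.15.

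The change on minimal medium differed between H2 and the trisomic descent in 21 members by the limma test of the difference itself, where 39.6% of all genes did. The count was 9 with only these groups fitted and 2 without a run term, and the shares of all genes called in those settings are not given here. H2 minus trisomic descent was 2.43 for HSP26, 1.48 for HSP42, 0.85 for CUR1, 0.75 for HSP104, 0.66 for SBA1, 0.63 for HSP82, 0.49 for CPR6, 0.47 for SSA1, 0.40 for SSE2 and 0.40 for STI1. It was 0.35 for MGE1, 0.33 for SSC1, 0.31 for FES1, 0.30 for KAR2, 0.26 for HSC82, 0.19 for HCH1, HSP60 and YDJ1, and 0.16 for SSA2. HSP78 and HSF1 lay on the other side, at −0.78 and −0.37.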

How the results depend on the processing

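Among values of single members under the alternatives, 1226 kept their direction and their side of the threshold, 147 lost and 18 gained a call, and 61 changed sign. Counts below are given without the share of all genes called in each setting, and are not read as results about the members. The count of members called moved by over 1.5 times as follows, and the cause was not tested. Without a run term it was 4 for 30 °C against the ancestor, 22 for abrupt against gradual heat, 1 and 0 for H2 and the trisomic descent on minimal medium, 2 between them, 8 at pH 8.6 after 750 generations, 27 in the evo39 spores and 0 after 150 generations at pH 8.6. In that setting the median of all genes shifted by 0.51 in abrupt against gradual heat, 0.51 in the spores and −0.52 in the late pH arrays. With quantile normalization over all arrays it was 6 for 30 °C against the ancestor, 4 for abrupt heat against 30 °C, 4 for abrupt against gradual heat, 3 for the trisomic descent, 12 between the minimal-medium lines and 3 in the spores. With only the groups compared it was 1 for gradual heat, 8 for H2, 0 for the trisomic descent and 9 between the lines. A random run term gave 1 for H2 relaxed against abrupt heat. Leaving out 1 array gave 15 to 19 members for H2 on minimal medium, 3 to 10 for the trisomic descent, 12 to 17 between the lines and 0 to 1 for H2 relaxed against abrupt heat, and 0 elsewhere except pH 8.6 after 150 generations, where no array could be left out. Leaving out spore 4, chosen after seeing the data, gave 1 in the spores.

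The replicate numbers were not taken to pair samples, since the labels do not say so and no comparison had 3 or more pairs that all correlated above 0.1. Deviations of same-numbered arrays correlated at −0.22 and −0.05 for abrupt heat and 30 °C, 0.05 to 0.14 for abrupt and gradual heat, −0.25 to −0.07 for H2 relaxed and abrupt heat, and 0.40 on minimal medium, where 2 arrays a group give a single value. With the replicate block the counts were 4, 4, 0 and 21, respectively, and on minimal medium 18 of the 21 were shared with the fit without the block while BTN2, HSP10 and SSA4 were gained.

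Without a run term these members changed sign: in abrupt heat against the ancestor AHA1 0.51, MGE1 0.32 and YDJ1 0.44; against 30 °C BTN2 −0.99, FES1 −0.42 and HSP26 0.19; against gradual heat HSP26 0.43, MGE1 0.37 and SIS1 0.94. In the spores HSF1 was 0.41, HSP26 0.66 and SBA1 0.49. In H2 relaxed HSP104 was 0.027 and HSP42 0.54 against the ancestor, and AHA1 −0.22, SIS1 −0.45 and STI1 −0.12 against abrupt heat. In 30 °C AHA1 was 0.48, FES1 0.98 and SSA2 0.35, in gradual heat HSP26 −0.18, HSP42 −0.26 and SSA3 0.034, in the monosomic clone CUR1 0.027 and in the trisomic clone HSP26 0.52. With quantile normalization abrupt heat had AHA1 0.086 and YDJ1 0.019 against the ancestor, BTN2 −0.98, FES1 −0.41 and HSP26 0.24 against 30 °C, and SIS1 0.39 and SSA3 −0.075 against gradual heat. H2 relaxed then had SIS1 −0.13 against abrupt heat and HSP42 0.49 against the ancestor, and 30 °C had AHA1 0.050, FES1 0.53, HSP26 −0.39 and SSA4 −0.29. Gradual heat had HSP26 −0.15, HSP42 −0.23 and SSA3 0.039, the clones CUR1 0.098 (monosomic) and HSP26 0.44 (trisomic), the spores HSP26 0.13 and SBA1 0.028, the late pH arrays MGE1 0.019, and SSB1 between the minimal-medium lines was −0.026. With the replicate block BTN2 was −1.43, FES1 −0.59, HSP26 0.55 and HSP78 −0.14 in abrupt heat against 30 °C, and SIS1 0.39, SSA3 −0.075, SIS1 −0.13 and SSB1 −0.026 as under quantile normalization. With a random run term AHA1 was 0.0082 and FES1 0.024 for 30 °C. SSB1 between the minimal-medium lines was −0.020 with the brightest probe set, and leaving out 1 array gave −0.018 to 0.019, with −0.0014 without trisomic array 1, and HSP26 was 0.0029 without late pH arrays 3 and 4. Comparisons of 1 array with 1 array have no replicate check of their own.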
